A study of Mus musculus with 6 samples.

Results

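The 4 Hox clusters of the mouse genome were followed in 6 bisulfite libraries of colon epithelium. Their members are all captured regions that overlap a fixed window of build mm9 around each cluster. The windows are chr11:96040000-96235000 for Hoxb, chr2:74490000-74610000 for Hoxd, chr6:52100000-52220000 for Hoxa and chr15:102740000-102870000 for Hoxc. They hold 499 of the 209687 regions of the capture, and 459 of the 499 had a value in every library. Of these, 136 lie in Hoxb, 108 in Hoxd, 129 in Hoxa and 86 in Hoxc. The 40 regions left out were small, with a median of 3.5 CpGs, and 3 of them had no value in any library.

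The libraries came from C57BL/6 mice aged 18 weeks, with 2 libraries in each of 3 groups. The first group received AOM (azoxymethane, a colon carcinogen), DSS (dextran sulfate sodium, which inflames the colon) and curcumin, a plant polyphenol. The second received AOM and DSS alone, and the third was the control. Per the labels, the proximal segment and the tumors of the right colon were cut away before the mucosa was scraped, so the cells are mucosal scrapings of the remaining colon. Doses, routes and the interval between treatment and sampling are not in the labels used here. Whether each library is a mouse of its own is not in the labels, and the tests rest only on the spread between libraries. In such bulk tissue, a change in the mixture of cells and a change of methylation within a cell cannot be told apart. The labelled cell type could not be checked against marker genes, because no mm9 annotation was used.

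Hox genes encode homeodomain transcription factors that give cells their position along the head-to-tail axis. Within a cluster the genes stand in the order of the body regions they pattern, from the anterior group that includes Hoxb1 to the posterior group that includes Hoxa13. Posterior members such as Hoxa13, Hoxb13 and Hoxd13 are expressed in the hindgut, from which the distal colon forms. The clusters are dense in CpGs, the dinucleotides that carry DNA methylation, and silent Hox genes are commonly held by Polycomb complexes rather than by methylation. Gains of DNA methylation at Hox genes are known from human tumors.

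The RefSeq gene table lists 10 Hox genes in order from Hoxb13 to Hoxb1, 9 from Hoxd13 to Hoxd1 and 9 from Hoxc13 to Hoxc4. The clusters also hold microRNA genes, among them Mir196a-1 and Mir10a in Hoxb, Mir10b in Hoxd, Mir196b in Hoxa and Mir615 in Hoxc. The posterior end has the high coordinates in Hoxa and the low coordinates in the other 3 clusters. Promoters of some of the outermost genes are printed to show how unevenly CpGs are spread over these clusters, since regions with more CpGs tended to be less methylated in each cluster. Promoters of 5 such genes are shown, from RefSeq. Each line gives the 250 bases before the start in build GRCm38.p6, 5′ to 3′, with the motif CG in capitals. CG reads the same on both strands.
Hoxb1, chr11:96365508-96365757, plus strand: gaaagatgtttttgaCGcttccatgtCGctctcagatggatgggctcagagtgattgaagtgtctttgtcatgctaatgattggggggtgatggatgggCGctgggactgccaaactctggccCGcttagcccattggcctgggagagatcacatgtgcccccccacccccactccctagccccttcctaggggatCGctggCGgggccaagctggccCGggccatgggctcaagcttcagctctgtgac
Hoxd13, chr2:74667975-74668224, plus strand: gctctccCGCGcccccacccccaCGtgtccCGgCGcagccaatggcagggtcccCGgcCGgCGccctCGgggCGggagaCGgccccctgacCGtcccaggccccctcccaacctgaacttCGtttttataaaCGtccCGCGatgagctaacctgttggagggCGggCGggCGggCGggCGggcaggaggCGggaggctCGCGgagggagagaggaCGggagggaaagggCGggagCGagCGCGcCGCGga
Hoxd1, chr2:74762730-74762979, plus strand: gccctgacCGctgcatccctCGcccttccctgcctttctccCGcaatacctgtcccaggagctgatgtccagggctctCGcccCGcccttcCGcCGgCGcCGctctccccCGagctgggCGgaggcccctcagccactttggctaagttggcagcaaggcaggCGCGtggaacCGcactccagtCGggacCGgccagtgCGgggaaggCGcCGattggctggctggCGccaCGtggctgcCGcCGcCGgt
Hoxa13, chr6:52260881-52261130, minus strand: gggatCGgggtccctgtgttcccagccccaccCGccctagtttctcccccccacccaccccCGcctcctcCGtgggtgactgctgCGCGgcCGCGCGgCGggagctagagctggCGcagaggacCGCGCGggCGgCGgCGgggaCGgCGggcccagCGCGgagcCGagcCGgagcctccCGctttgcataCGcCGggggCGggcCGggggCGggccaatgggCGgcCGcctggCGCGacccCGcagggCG
Hoxc4, chr15:103034145-103034394, plus strand: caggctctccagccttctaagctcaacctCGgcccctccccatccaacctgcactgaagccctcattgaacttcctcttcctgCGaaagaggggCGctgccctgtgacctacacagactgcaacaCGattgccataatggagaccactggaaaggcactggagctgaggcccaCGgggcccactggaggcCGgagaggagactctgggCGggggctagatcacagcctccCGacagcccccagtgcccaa
The Hoxa13 window held 35 CG, a number that 2.97% of the 32851 RefSeq promoter windows reach. Hoxd13 held 31 (reached by 5.19%) and Hoxd1 held 24 (reached by 11.98%). Hoxc4 with 8 (43.0%) and Hoxb1 with 7 (46.3%) were close to the median of all windows, which was 6. Over the 24 windows of 22 Hox genes the median was 12.5, with a range of 2 to 35. These windows belong to another build than the methylation files, so they were not laid over the measured regions.

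A region's methylation level is the percentage of its methylation calls that were methylated, and a cluster's level is the unweighted mean over its regions. The 459 Hox regions had a level of 18.9% ± 0.261 (SD, n = 6 libraries), against 40.8% ± 0.426 in the 179463 other regions. The difference of -21.9 points had the same sign in 6 of 6 libraries. The exact two-sided sign-flip permutation test over libraries gave an adjusted p of 0.03125, the smallest that 6 libraries can give. Here and below, this test asks whether a difference between fixed sets of regions repeats between libraries. It does not measure the spread between regions. Of the Hox regions, 287 (62.5%) were under 10% methylated, 106 lay between 10% and 50%, and 66 (14.4%) were over 50%. Outside the clusters 36.4% of regions were under 10% and 42.7% were over 50%. Hox regions were the more deeply read: the median region had 156 to 197 calls in the clusters, depending on the library, and 95 to 118 elsewhere.

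The clusters stood at different levels. Hoxb was the highest, with 27.3% and 24.8% in the libraries with curcumin, 26.2% and 25.4% in the AOM/DSS libraries, and 26.4% and 24.4% in the controls. Hoxd followed with 20.003% and 20.386% with curcumin, 19.5% and 19.0% in AOM/DSS, and 20.1% and 21.7% in the controls. Hoxa had 18.4% and 18.3% with curcumin, 18.2% and 19.6% in AOM/DSS, and 17.8% and 18.2% in the controls. Hoxc was the lowest, with 7.64% and 7.15% with curcumin, 7.26% and 7.45% in AOM/DSS, and 7.43% and 7.02% in the controls. In the plot of cluster levels no library of Hoxb or Hoxc crossed into another cluster, while Hoxd and Hoxa lay side by side.

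**Figure D1:**
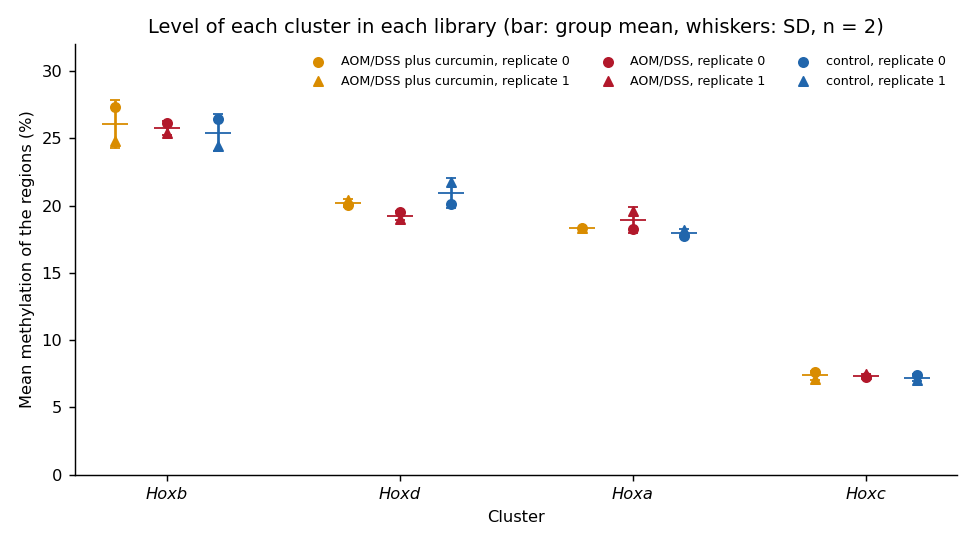
Mean methylation (%) of the regions of each cluster in each library, with circles for replicate 0, triangles for replicate 1, a bar for the group mean and whiskers for the SD (n = 2). Hoxb lies between 24.4% and 27.3% and Hoxc between 7.02% and 7.64%, whereas Hoxd and Hoxa both lie near 18% to 22%.

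Over the 6 libraries Hoxb averaged 25.8% ± 1.09, Hoxd 20.1% ± 0.933, Hoxa 18.4% ± 0.632 and Hoxc 7.32% ± 0.226 (SD, n = 6). Hoxb exceeded Hoxd by 5.63 ± 1.74 points, Hoxa by 7.34 ± 1.35 points and Hoxc by 18.4 ± 0.895 points. Hoxd exceeded Hoxc by 12.8 ± 1.09 points and Hoxa exceeded it by 11.1 ± 0.622 points. Each of these 5 differences held in 6 of 6 libraries, with an adjusted p of 0.0375 over 6 pairs (exact sign-flip permutation test). With pooled calls Hoxa exceeded Hoxc by 7.29 points. Hoxd exceeded Hoxa by 1.71 ± 1.39 points, in 5 of 6 libraries, with an adjusted p of 0.0625, so these neighbors in the order were not told apart. The mean hides the shape of each cluster: the median region stood at 9.89% in Hoxb, 11.997% in Hoxd, 2.98% in Hoxa and 5.61% in Hoxc. Hoxa was thus mostly empty of methylation with a few very methylated regions, 94 of 129 under 10% and 22 over 50%. In Hoxd 48 of 108 regions lay between 10% and 50%, and 11 above. None of the 86 Hoxc regions exceeded 50%, and 75 were under 10%.

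The posterior part had a lower mean level than the anterior part in all 4 clusters. Each window was divided into 3 parts of equal length. In Hoxa the posterior part, toward Hoxa13, had 7.60% methylation, against 51.2% in the anterior part, a difference of -43.6 ± 0.848 points (SD, n = 6). In Hoxb the posterior part had 6.49%, against 41.0% in the anterior part, a difference of -34.5 ± 0.920 points. In Hoxd the values were 12.5% posterior and 23.5% anterior, a difference of -11.0 ± 1.94 points. In Hoxc they were 5.89% posterior and 9.46% anterior, a difference of -3.57 ± 0.932 points. The posterior part was lower in 6 of 6 libraries in each cluster (adjusted p = 0.03125 over the 4 clusters, exact sign-flip permutation test). Whether these differences exceed the spread between regions was not tested. The 100 kb outside the windows had the same order where both sides were captured. The posterior and anterior sides had 33.6% and 72.5% at Hoxa, 21.8% and 44.2% at Hoxb, and 40.5% and 45.3% at Hoxd. A lower posterior side was thus not particular to the clusters, and these differences between flanks were not tested. Hoxc had no captured region on its posterior side.

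**Figure D2:**
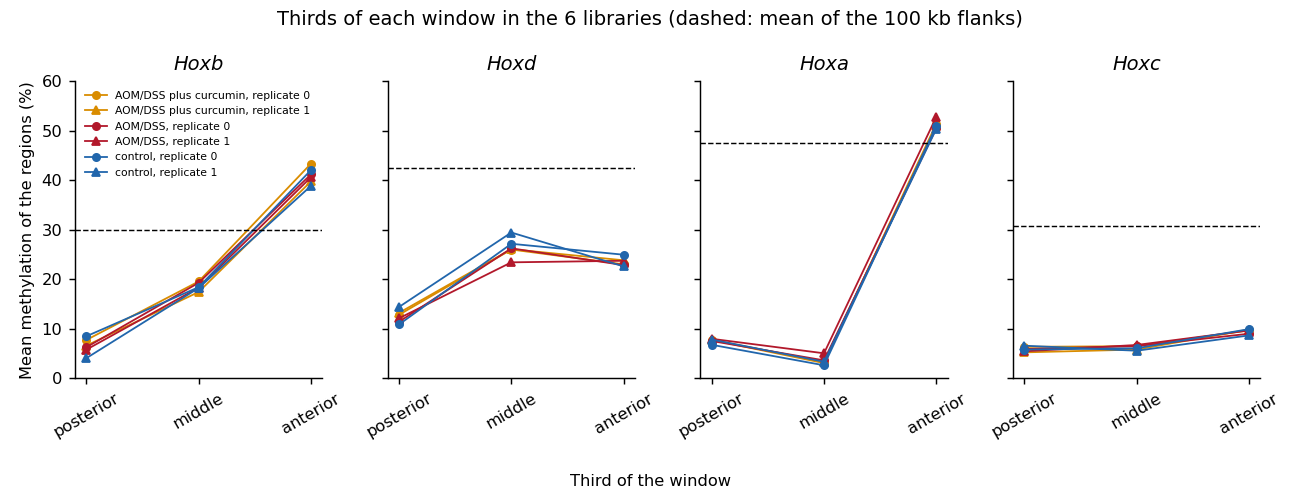
Mean methylation (%) of the regions in the posterior, middle and anterior parts of each window, with 1 line per library and the dashed line at the mean of the 100 kb on either side. All 6 libraries show the anterior part above the posterior part, with the widest gap in Hoxa (7.60% posterior, 51.2% anterior).

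The order was not a steady gradient. In Hoxa the middle part was the lowest, at 3.51%, and 50 of its 53 regions were under 10%. In Hoxd the middle part was the highest, at 26.4%. Hoxb passed through 18.5% in the middle and Hoxc through 6.20%. With each window divided into 2 or into 4 equal parts, the posterior end was also lower than the anterior end in all 4 clusters. With 2 parts the difference was -1.38 points in Hoxc and -25.7 points in Hoxa, and with pooled calls it was -6.65 points in Hoxd, so its size depends on the division and the weighting. CpG number also differs along the windows: the median region had 15 CpGs in the posterior and 9 in the anterior part of Hoxa, but 11 and 12 in Hoxb, 15 and 14 in Hoxd and 13 and 14.5 in Hoxc. Its part in the difference was not tested.

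The profiles along the clusters showed long unmethylated runs broken by short methylated blocks.

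**Figure D3:**
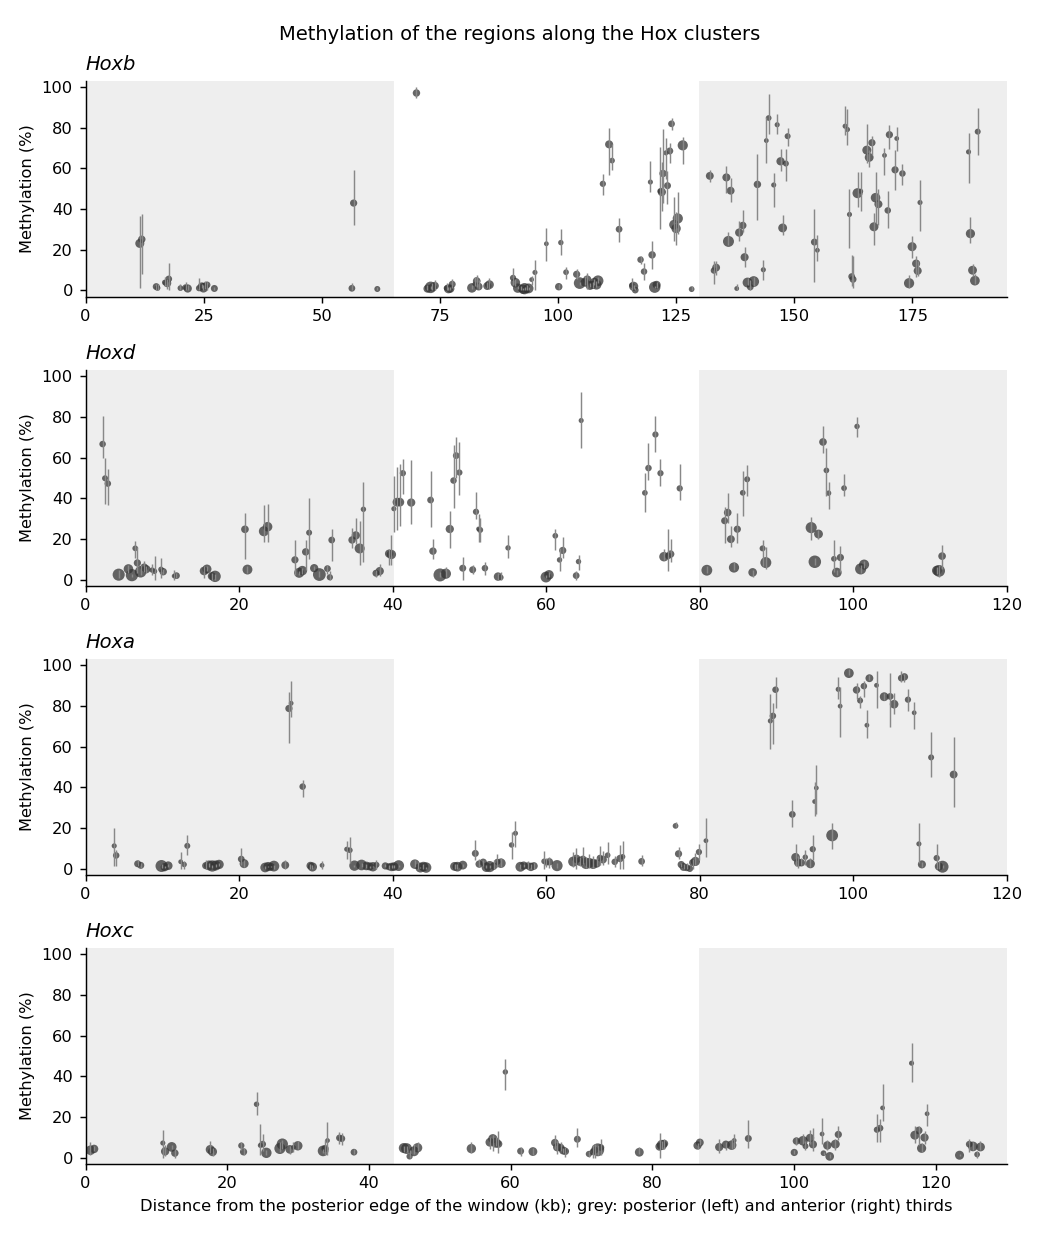
Methylation (%) of each region against its distance (kb) from the posterior edge of the window, with the mean of 6 libraries as a point sized by CpG number, the range over libraries as a vertical line, and the posterior and anterior parts in grey. Hoxa shows a block over 50% near its anterior end, Hoxb a broad mixed zone in its anterior part, Hoxd many intermediate values (48 of 108 regions between 10% and 50%) beside 49 regions under 10%, and Hoxc no region over 50%.

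The longest unmethylated run of Hoxa was chr6:52165767-52190827, 25.1 kb with 32 consecutive regions all under 10% and a mean of 2.10%. Its means were 1.92% and 1.93% with curcumin, 2.20% and 2.95% in AOM/DSS, and 1.63% and 1.94% in the controls. The longest run over 50% lay at the anterior end, at chr6:52112019-52122068, with 16 regions and 165 CpGs in 10.05 kb. It stood at 86.6% and 86.7% with curcumin, 84.7% and 85.0% in AOM/DSS, and 86.9% and 86.3% in the controls. The AOM/DSS libraries were the lowest in this block. They were also the lowest in the regions over 50% outside the clusters, with 78.0% and 77.9% against 79.4% or more in the other libraries. Over all 22 Hoxa regions over 50%, AOM/DSS had 81.9% and 83.1% and overlapped the controls at 81.5% and 82.8%. This block holds the most methylated Hoxa region, chr6:52120422-52120730, with 25 CpGs and 96.1% methylation, whereas 74.3% of all Hox regions with 13 to 77 CpGs were under 10%. The Hoxa region with the most CpGs in the anterior part, chr6:52108144-52108607 with 40 CpGs, stood at 0.937% ± 0.537.

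In Hoxb the longest run under 10% was chr11:96112184-96135152, 23.0 kb with 24 regions and a mean of 2.39%. The longest run over 50% had 5 regions in chr11:96162110-96164169, with a mean of 65.5% ± 4.44 (SD, n = 6). Just before the long unmethylated run lies chr11:96109919-96110167 at 97.1%, the highest of the Hox regions with a value in every library. The next captured region, chr11:96110384-96110474, had a value in 4 libraries: 100% in curcumin replicate 0, 97.0% and 97.4% in AOM/DSS, and 100% in control replicate 1. In Hoxc 30 regions over 41.6 kb, chr15:102801278-102842840, were all under 10%, with a mean of 5.61%. The most methylated Hoxc region, chr15:102856476-102856630, reached 46.5% ± 6.85. In Hoxd the longest run under 10% was shorter, 14 regions over 10.4 kb at chr2:74496651-74507062, and the longest over 50% had 3 regions at chr2:74563208-74565068.

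Some boundaries between methylated and unmethylated sequence were abrupt. In Hoxa, chr6:52193393-52193624 averaged 78.8% and the next region, 148 bases on, averaged 1.70%. In Hoxb, chr11:96228067-96228410 averaged 4.84% and the next region, 285 bases on, averaged 78.1%. In Hoxd, chr2:74590405-74590566 averaged 75.3% and the next region, 188 bases on, averaged 5.24%. Among neighbors at most 2000 bases apart, steps over 50 points were found in 4 of 118 pairs in Hoxb, 2 of 97 in Hoxd, 5 of 118 in Hoxa and none of 69 in Hoxc, whose largest step was 38.9 points. The median step was 5.48 points in Hoxb, 8.58 in Hoxd, 1.76 in Hoxa and 2.31 in Hoxc.

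The clusters were compared with the captured regions within 100 kb on either side. Hoxd had 20.1%, against 42.4% in its flanks (-22.3 points). Hoxa had 18.4%, against 47.5% in its flanks (-29.1 points). Hoxc had 7.32%, against 30.8% on its anterior side (-23.5 points), where all its captured flank regions lie. Hoxb had 25.8%, against 29.9% in its flanks (-4.16 points). All 4 were lower than the mean of their flank regions in 6 of 6 libraries (adjusted p = 0.03125, exact sign-flip permutation test). For Hoxb this held only at that width or wider: against 50 kb on either side the cluster was 3.91 points higher (p = 0.03125, exact sign-flip permutation test). The flanks are thinly captured, with 15 regions for Hoxd, 39 for Hoxa, 23 for Hoxc and 36 for Hoxb. Flank regions also hold fewer CpGs. Their median was 4 against 12.5 in Hoxd, 8 against 13 in Hoxa and in Hoxb, and 9 against 15.5 in Hoxc. The part of CpG number in these differences was not tested. With a minimum of 50 calls per library the difference was -6.23 points for Hoxd, -14.4 for Hoxc and -2.14 for Hoxb. With pooled calls it was -10.5 for Hoxd, -12.3 for Hoxc and -8.12 for Hoxb, and against 50 kb on either side it was -54.5 for Hoxd. Against flanks wider than 100 kb it was -15.6 for Hoxc.

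Hox regions hold more CpGs each than the rest of the capture (median 13 against 7), with 53.4% of them in the highest of 4 classes of CpG number. Region length was not taken into account. Among regions with 3 to 4 CpGs the Hox level was 37.6%, against 53.99% elsewhere (-16.4 points). With 5 to 7 CpGs it was 24.1%, against 50.4% (-26.3 points). With 8 to 12 CpGs it was 22.1%, against 40.05% (-17.97 points). In the highest class, 13 to 77 CpGs, it was 12.5%, against 14.9% (-2.34 points). As a set, Hox regions were lower in 6 of 6 libraries in each class (adjusted p = 0.03125 over 5 tests, exact sign-flip permutation test). The low mean of the set was thus found at like CpG number too. In the highest class, however, Hoxb was higher, with 17.9% to 21.4% over the libraries against 14.8% to 15.0% elsewhere. Hoxd, Hoxa and Hoxc were lower there, with means of 12.2%, 10.4% and 5.50%. Single clusters were not tested within a class. Medians differ in sign from the means in the highest class, with 4.31% for the median Hox region and 1.85% elsewhere. There 74.3% of Hox regions were under 10%, against 76.5% elsewhere, and 18.8% lay between 10% and 50%, against 10.5% elsewhere. In that class 6.94% of Hox regions were over 50%, against 13.1% elsewhere. Among regions with 3 to 4 CpGs a minimum of 50 calls per library reduced the difference to -6.82 points.

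**Figure D4:**
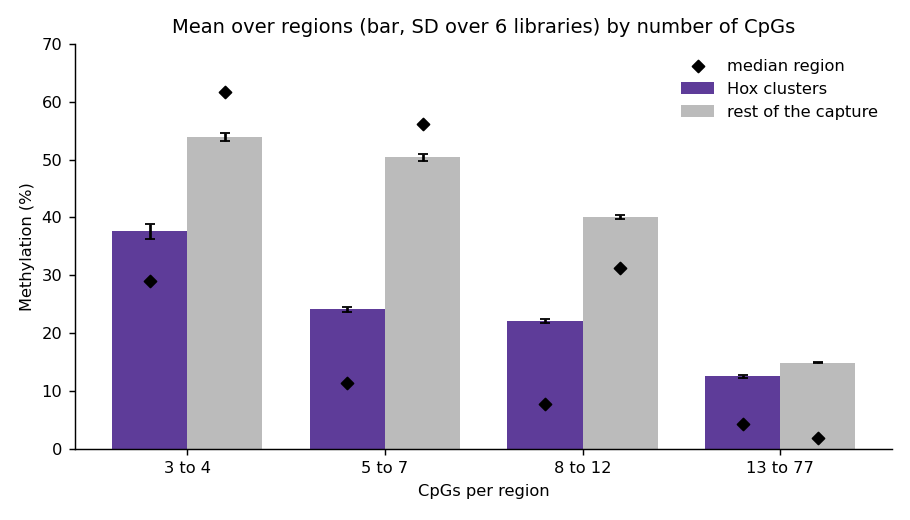
Methylation (%) of Hox regions (purple) and the rest of the capture (grey) by number of CpGs, with the mean over regions as a bar, the SD over 6 libraries as a whisker and the median region as a diamond. The bar of all Hox regions is lower in every class. In the class with the most CpGs the median Hox region (4.31%) lies above the median of the rest (1.85%).

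The order of the clusters differed between the classes of CpG number. Among regions with 3 to 4 CpGs Hoxb stood at 44.9%, Hoxd at 34.9%, Hoxa at 41.3% and Hoxc at 15.5%, with 4 regions for Hoxd and 9 for Hoxc. With 5 to 7 CpGs the levels were 28.7% in Hoxb, 27.0% in Hoxd, 16.8% in Hoxa and 15.6% in Hoxc. With 8 to 12 CpGs they were 24.6% in Hoxb, 27.9% in Hoxd, 24.6% in Hoxa and 6.32% in Hoxc. In the class with the most CpGs they were 20.1% in Hoxb, 12.2% in Hoxd, 10.4% in Hoxa and 5.50% in Hoxc. Hoxc was thus the lowest in each class, whereas Hoxb was not the highest with 8 to 12 CpGs and Hoxa stood above Hoxd with 3 to 4. As a description over regions, the Spearman correlation of level with CpG number was -0.24 in Hoxb (n = 136), -0.45 in Hoxd (n = 108), -0.54 in Hoxa (n = 129) and -0.27 in Hoxc (n = 86), against -0.45 over all 179922 regions. Neighboring regions share libraries and sequence, so these are not independent points.

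Over the clusters as a whole the 3 groups overlapped. The level of all Hox regions was 19.4% and 18.6% with curcumin, 18.8% and 18.9% in AOM/DSS, and 18.9% and 18.8% in the controls. The AOM/DSS libraries differed from the controls by 0.008 points. In the rest of the capture AOM/DSS had 40.4%, against 41.3% in the controls (-0.901 points). With 2 libraries in each group, the smallest two-sided p of an exact permutation test is 0.333, so no such difference could pass a threshold, and all 12 tests of clusters had an adjusted p of 1.

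By cluster, the widest differences had opposite signs in Hoxa and Hoxd. Hoxd averaged 19.2% ± 0.350 in AOM/DSS and 20.9% ± 1.14 in the controls (-1.69 points, no overlap, exact permutation p = 0.333). With curcumin it averaged 20.2% ± 0.271, which was 0.954 points above AOM/DSS, again with no overlap. Hoxa averaged 18.9% ± 0.976 in AOM/DSS and 18.0% ± 0.305 in the controls (0.968 points, no overlap, exact permutation p = 0.333). Each was smaller without 1 library: without control replicate 1 the Hoxd difference was -0.879, and without AOM/DSS replicate 1 the Hoxa difference was 0.278. Hoxb and Hoxc differed between AOM/DSS and control by 0.362 and 0.134 points, within the spread of replicates.

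Divided by level, a division made after the values were seen, the Hox regions behaved as follows. The 66 regions over 50% stood at 73.8% and 71.6% with curcumin, 71.8% and 70.9% in AOM/DSS, and 72.1% and 72.0% in the controls. AOM/DSS was 0.718 points below the controls there, against 2.20 points below in the 76696 other regions over 50%. The Hox difference was -0.193 points with pooled calls, 0.068 points with at least 50 calls per library, -0.256 points without AOM/DSS replicate 1 and -1.18 points without AOM/DSS replicate 0. The 287 Hox regions under 10% stood at 3.57% and 3.71% with curcumin, 3.81% and 4.28% in AOM/DSS, and 3.64% and 3.44% in the controls. AOM/DSS was 0.506 points above the controls there, and 0.417 points above in the rest of the capture. Without AOM/DSS replicate 1 these differences were 0.270 and 0.135 points. In the 94 such regions of Hoxa the AOM/DSS libraries had 2.68% and 3.89%, against 2.13% and 2.52% in the controls, and the curcumin libraries had 2.06% and 2.57%. There AOM/DSS stood 0.961 points above the controls, and 0.356 points above without AOM/DSS replicate 1. The 106 Hox regions between 10% and 50% stood at 26.5% and 26.1% in AOM/DSS, and 27.2% and 27.1% in the controls. AOM/DSS minus control was -0.889 points there (no overlap, exact permutation p = 0.333), against -0.544 points in the rest of the capture. It was -0.650 points with pooled calls and -1.19 points with at least 50 calls. By cluster it was 2.12 points in Hoxa, 0.524 in Hoxb, -1.24 in Hoxc and -2.62 in Hoxd. In the 11 Hoxd regions over 50%, curcumin had 62.8% and 64.0%, AOM/DSS 61.2% and 57.0%, and the controls 65.2% and 64.0%. The difference between AOM/DSS and control there was -5.54 points with no overlap (exact permutation p = 0.333), and -3.45 points without AOM/DSS replicate 1. In the regions over 50% of the other clusters that have any, the same difference was 0.320 points in Hoxa and 0.199 points in Hoxb.

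Region by region, edgeR's quasi-likelihood test over all 179922 regions called none of the 459 Hox regions in any comparison. A call required group means 10 or more points apart and an adjusted p below 0.05. The background was 0.00389% of regions called for AOM/DSS against control, and 0% for curcumin against AOM/DSS and for curcumin against control. The smallest adjusted p of a Hox region was 0.550 for AOM/DSS against control, 0.305 for curcumin against AOM/DSS and 1 for curcumin against control. Taking the p before adjustment, and means 10 or more points apart, edgeR gave 10 Hox regions for AOM/DSS against control (2.18%, background 2.82%), 6 for curcumin against AOM/DSS (1.31%, background 2%) and 7 for curcumin against control (1.53%, background 1.46%). By the same rule limma on log2 ratios gave 8 (1.74%, background 2.29%), 2 (0.436%, background 1.74%) and 3 (0.654%, background 1.39%) in these comparisons, and it called none after adjustment. Fisher's exact test sums the calls of a group and so does not see replicate spread. After adjustment it called 5 Hox regions for AOM/DSS against control (1.09%, background 2%), 6 for curcumin against AOM/DSS (1.31%, background 0.998%) and 2 for curcumin against control (0.436%, background 0.355%). The Hox share was below its background in 6 of these 9 counts, which rest on the same libraries and are not separate evidence. The background is not matched for level: 62.5% of Hox regions were under 10% methylated, against 36.4% outside the clusters. Whether the shares differ at like level was not tested.

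For AOM/DSS against control, 24 Hox regions were higher at an unadjusted edgeR p under 0.05 (5.23%, background 2.73%) and 15 were lower (3.27%, background 3.62%). Of the 24, 13 lay in Hoxa. There AOM/DSS replicate 1 was above AOM/DSS replicate 0 in 86 of the 129 regions (66.7%, against 51.4% of all regions). For curcumin against AOM/DSS, 13 were higher (2.83%, background 2.56%) and 21 were lower (4.58%, background 2.69%), 10 of the 21 in Hoxa. For curcumin against control, 20 were higher (4.36%, background 1.83%) and 11 were lower (2.40%, background 2.34%). The first and second comparisons share the AOM/DSS libraries, so opposite signs in them are not separate evidence. The background is again not matched for level. In the rest of the capture AOM/DSS minus control was 0.417 points in regions under 10% and -2.20 points in regions over 50%. Regions under 10% were 62.5% of the Hox regions and 36.4% of the others. The part of level in these shares was not tested.

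Regions whose groups did not overlap were counted against the same kind of background, likewise not matched for level. For AOM/DSS against control 86 Hox regions were higher in both AOM/DSS libraries (18.7%, background 14.8%) and 61 were lower (13.3%, background 20.8%). With at least 10 points between the means, 5 were higher (1.09%, background 1.98%), all in Hoxb, and 13 were lower (2.83%, background 5.08%), 7 of them in Hoxd. For curcumin against AOM/DSS, 77 were higher (16.8%, background 18.9%) and 90 were lower (19.6%, background 16%). With at least 10 points 15 were higher (3.27%, background 3.86%) and 6 were lower (1.31%, background 2.17%). For curcumin against control, 81 were higher (17.6%, background 14.3%) and 68 were lower (14.8%, background 17.7%). With at least 10 points 8 were higher and 8 were lower (1.74% each, background 1.94% and 3.01%). The median Hox difference was 0.304 points for AOM/DSS against control, -0.074 for curcumin against AOM/DSS and 0.116 for curcumin against control. Over all regions, also not matched for level, these medians were -0.264, 0.111 and -0.168 points.

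The Hox regions with the smallest unadjusted p were mostly at low levels, where a few points separate the groups. Region chr6:52154166-52154559 in the middle of Hoxa, with 26 CpGs and 423 to 593 calls per library, had the smallest. It stood at 1.09% and 0.398% with curcumin, 3.37% and 7.22% in AOM/DSS, and 1.87% and 2.84% in the controls (curcumin minus AOM/DSS -4.55 points, edgeR adjusted p = 0.305). The nearby region chr6:52150231-52150524, with 13 CpGs, had 0.00% and 2.49% with curcumin, 8.47% and 11.6% in AOM/DSS, and 3.69% and 3.60% in the controls (-8.81 points, edgeR adjusted p = 0.619). AOM/DSS was the highest group in both. Between them, chr6:52153745-52154035 had 0.375% and 0.719% with curcumin, 1.44% and 6.38% in AOM/DSS, and 3.85% and 1.16% in the controls. There AOM/DSS overlapped the controls.

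For AOM/DSS against control the smallest p belonged to chr15:102740455-102740934, at the posterior edge of the Hoxc window with 24 CpGs. It stood at 1.79% and 1.22% in AOM/DSS, against 6.15% and 7.76% in the controls (-5.45 points, edgeR adjusted p = 0.550), and at 3.404% and 1.681% with curcumin. Among regions higher in AOM/DSS, chr6:52155048-52155403 in the same stretch of Hoxa had 4.73% and 10.5% in AOM/DSS, against 2.11% and 2.54% in the controls, and 3.02% and 3.82% with curcumin. In the boundary region of Hoxa named above, chr6:52193393-52193624, curcumin had 87.0% and 86.1%, against 61.8% and 79.5% in the controls (15.9 points, edgeR adjusted p = 1), with 77.3% and 80.9% in AOM/DSS. Control replicate 0 was the low library there.

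A Hoxb region near the posterior edge, chr11:96051326-96051653 with 21 CpGs and 222 to 365 calls per library, turned on 1 library. It had 27.1% and 22.9% with curcumin, 29.3% and 21.6% in AOM/DSS, and 36.6% and 1.35% in the controls. Control replicate 1 alone was nearly unmethylated. Without control replicate 0 the region was called by edgeR, with 24.1 points and an adjusted p of 0.012 for AOM/DSS against control, and 23.6 points and 0.028 for curcumin against control. The control group is then 1 library, so this p assumes that a lone control varies like the libraries of the other groups. With both controls the adjusted p was 0.892 for AOM/DSS against control and 1 for curcumin against control. The next region, chr11:96051727-96052091, had 31.5% and 37.7% with curcumin, 21.6% and 20.8% in AOM/DSS, and 31.1% and 8.33% in the controls, so control replicate 1 was the lowest there as well.

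The widest spread between libraries was in Hoxd and Hoxb. Region chr2:74526131-74526263 had 39.1% and 47.8% with curcumin, 20.8% and 45.0% in AOM/DSS, and 8.70% and 45.8% in the controls, on 23 to 40 calls. Region chr11:96194222-96194318 had 36.6% and 4.35% with curcumin, 40% and 37.0% in AOM/DSS, and 9.46% and 15.4% in the controls, on 23 to 74 calls. Replicates of at least 1 group stood far apart in each, at shallow depth. In Hoxb chr11:96161569-96161700 had 70.5% and 56.5% with curcumin, 52.7% and 30.3% in AOM/DSS, and 41.8% and 41.6% in the controls. Its neighbor chr11:96162110-96162363 had 79.6% and 44.4% with curcumin, 63.2% and 59.8% in AOM/DSS, and 42.9% and 55.4% in the controls.

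The control libraries disagreed most in Hoxd. The mean absolute difference between control replicates was 7.24 points over the 108 Hoxd regions, against 4.92 over all regions. In Hoxd it was 4.23 points between the curcumin replicates and 4.50 between the AOM/DSS replicates. Control replicate 1 was the highest and control replicate 0 the lowest of the 6 libraries in 9 Hoxd regions (8.33%, against 2.91% of all regions), and the reverse held in 9 others (8.33%, against 3.48%). Of the first 9, 8 followed one another with gaps under 20 kb, and they span chr2:74513477-74539203, a stretch of 25.7 kb chosen after the values were seen. Its 33 regions averaged 21.8% and 21.5% with curcumin, 18.4% and 18.9% in AOM/DSS, and 17.4% and 27.3% in the controls. The 8 regions that set its bounds have control replicate 1 above control replicate 0 by the way they were chosen. Among the 25 others control replicate 1 was above control replicate 0 in 18, and in 13 of the 14 at 10% or more. In those 14 the levels were 32.02% and 31.8% with curcumin, 26.5% and 27.4% in AOM/DSS, and 27.5% and 38.6% in the controls. Outside the stretch the 75 other Hoxd regions had 19.2% and 19.9% with curcumin, 19.96% and 19.05% in AOM/DSS, and 21.3% and 19.3% in the controls. Over all 33 regions of the stretch the AOM/DSS libraries overlapped the controls, and control replicate 1 alone was high. That overlap includes the 8 regions chosen with control replicate 0 the lowest. In the 25 others AOM/DSS had 16.6% and 16.9%, below the controls at 17.3% and 23.2%. AOM/DSS was below both controls in the 14 at 10% or more as well, where the closest libraries had 27.4% and 27.5%. Leaving out the 8 regions raises control replicate 0 relative to the other libraries, so these 2 comparisons also rest on a choice made from the same values. Neither set of regions can tell whether AOM/DSS lay below the controls in this stretch. In the rest of Hoxd the AOM/DSS libraries overlapped the controls.

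**Figure D5:**
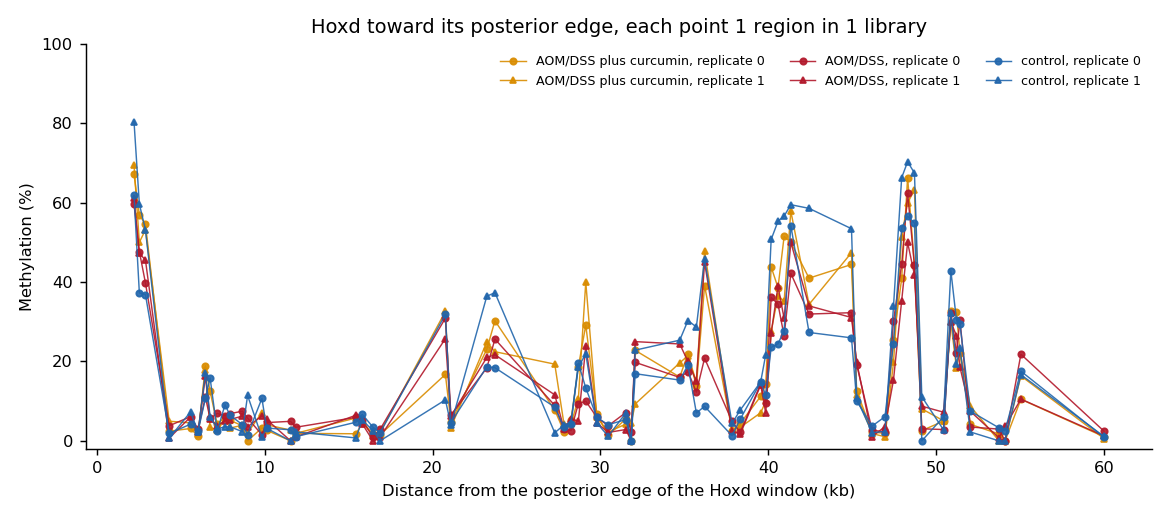
Methylation (%) of each Hoxd region toward the posterior edge, in the posterior part and the start of the middle part, against its distance (kb) from the posterior edge of the window, with 1 line per library, circles for replicate 0 and triangles for replicate 1. Control replicate 1 (blue triangles) runs above control replicate 0 (blue circles) in 18 of the 25 regions that did not set the bounds of the stretch, which begins 23.7 kb from the edge.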

How the data were processed

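Per the labels, DNA of scraped colon epithelium was bisulfite sequenced after capture (Agilent SureSelectXT Mouse Methyl-Seq). The submitters' processing notes name build mm9, R 3.4.0, ChIPseeker 1.10.3 and Bismark 0.15.0; for their roles, the way regions were drawn and the treatment of duplicates, the sources used here give nothing. Counts are what the authors deposited per region and library, namely CpGs, methylation calls and methylated calls, with no value under 20 calls. Totals ran from 24682973 to 30727568 calls per library. Calls of one read depend on each other, and intervals from calls alone were left out.

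Regions with at least 10 calls in all 6 libraries were kept. Levels were computed in Python 3.11.15 with pandas 2.3.3, and tests within libraries flipped the signs of 6 differences exactly. Regions were tested with edgeR 4.0.16 in R 4.3.3 on methylated and unmethylated counts, with a coefficient per library and per group, and adjusted over all 179922 regions by Benjamini-Hochberg; limma 3.58.1 and Fisher's exact test were alternatives. The tests were also run on simulated data in which only regions of intermediate level were shifted, with the outcome not given here. That run does not cover small differences in regions under 10%. Named regions are those with the smallest unadjusted p without overlap (4 per comparison and direction), and per cluster the 3 highest and the 3 with the most CpGs. The 4 with the largest SD and the longest runs were named as well, and not all are printed. Steps, the division by level, the Hoxd stretch and the regions called without 1 library were chosen after their values were seen. The members and lists were chosen with earlier results of these data known. No mm9 genome or annotation was used, so no region was assigned to a gene and the lists of other genes and of cell type markers were not used. Positions are printed as deposited and may be off by 1 base, since the counting base of the starts is not stated.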

Additional observations from a re-analysis of the deposited data

How the results depend on the processing

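Of 43 results, the tests of cluster against cluster, posterior against anterior part, and Hox against the rest kept their direction and their side of 0.05 under each alternative with a test (at least 50 calls, pooled calls, all regions with a value, and other divisions of the windows). Against flanks, Hoxb turned to 3.91 points with 50 kb flanks; the cause was not tested. The count of called Hox regions, 0 in each comparison, was 5 for AOM/DSS against control (background 2%), 6 for curcumin against AOM/DSS (background 0.998%) and 2 for curcumin against control (background 0.355%) by Fisher's exact test, which takes no account of replicate spread. Leaving out a library gave 0 to 1, 0 to 0 and 0 to 1 calls in these comparisons.

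Differences of cluster levels between groups were small, and 8 of 12 turned with a single library. Leaving out each in turn, AOM/DSS minus control ran from -0.618 to 1.34 points in Hoxb, -2.49 to -0.879 in Hoxd, 0.278 to 1.66 in Hoxa and -0.073 to 0.341 in Hoxc. Curcumin minus AOM/DSS ran from -1.002 to 1.56 in Hoxb, 0.706 to 1.20 in Hoxd, -1.29 to 0.092 in Hoxa and -0.210 to 0.280 in Hoxc. Curcumin minus control ran from -0.640 to 1.92 in Hoxb, -1.54 to 0.075 in Hoxd, 0.155 to 0.586 in Hoxa and -0.076 to 0.414 in Hoxc. With all regions that have a value, AOM/DSS minus control was -0.078 in Hoxc and curcumin minus AOM/DSS was -0.061 in Hoxb. For Hox regions over 50%, AOM/DSS minus control was 0.068 with at least 50 calls, and curcumin minus control ran from -0.482 to 1.76 with a library left out. For those between 10% and 50%, curcumin minus AOM/DSS ran from -0.259 to 2.04 in that way. There, curcumin minus control was -0.338 with at least 50 calls, -0.051 with pooled calls, and -1.15 to 1.15 with a library left out.

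Over the capture, replicate numbers showed little pairing of the libraries: deviations of same-numbered libraries from their group means had correlations of 0.005, 0.011 and 0.058 over 93456 regions. In Hoxb, however, replicate 1 minus replicate 0 was -2.56 points with curcumin, -0.750 in AOM/DSS and -1.96 in the controls. Whether the numbers mark a pairing there was not tested. With the replicate number as a block, edgeR called 0 Hox regions in each comparison, and 41, 1 and 0 of all regions, against 7, 0 and 0 without the block. The block leaves differences of cluster levels as they are, with exact p of at least 0.5. Depth limits regions of few CpGs most.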
